A study of Mus musculus with 10 samples.

Results

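The genes described here are 43 interferon response genes of mouse B cells: the 2 chains of the type I interferon receptor, the transcription factors that act behind it, and genes whose transcription interferon induces. They were chosen by name, as a gene module, and all 43 were found among the 17658 genes of the deposited expression table. Of the 43, 39 had a mean of at least 1 FPKM (fragments normalised to transcript length and library size) over the 10 libraries and were tested, within a total of 10225 tested genes. The other 4, Oas3, Mx2, Parp12 and Ifi44, had means from 0.157 to 0.941 FPKM and were left out of every test. In all 4 the libraries of the genotypes overlapped after stimulation.

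The libraries were made from B cells of C57BL/6 mice aged 10 weeks, taken from spleen and lymph node by magnetic removal of other cells. The groups were formed by genotype label (wild type or Nr4a1-/-) and by stimulation. Wild-type and Nr4a1-/- cells without stimulation gave 1 library each. Cells of each genotype that were stimulated through their antigen receptor with anti-IgM at 10 µg/mL for 2 h gave 4 libraries each, and their values are listed below in the order of their letters, A to D. Whether a letter stands for a mouse of its own is not stated in the labels, so p-values measure the spread between these libraries, which may be technical. Nr4a1 belongs to the orphan nuclear receptors, and signalling by the antigen receptor induces it; the labels give its allele as Nr4a1-/- and name no Cre or cell type.

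Type I interferon binds the receptor chains Ifnar1 and Ifnar2 and activates the kinases Jak1 and Tyk2. These phosphorylate STAT proteins, Stat2 among them, which join Irf9 in a complex that binds the interferon-stimulated response element in the promoters of antiviral genes. Resting cells hold a basal level of many of these transcripts, and several of the products are themselves parts of the pathway, among them Stat2, Irf9, Irf7 and the RNA sensors.

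The element was looked for in the promoters of the members. Choosing the members by name used no sequence. They were chosen as interferon response genes, however, so the shares below are not independent of that choice. Promoter sequences came from RefSeq (GRCm38.p6, the same build as the mm10 named in the submitters' processing notes) and ran from 250 bases before to 50 bases after each start site listed for a gene; 33 of the 43 members had an entry. The core of the element, GAAANNGAAA on either strand, was present in 15 of the 33 (45.5%), against 1079 of 27025 genes in the whole table (3.99%). With at most 1 mismatch it was present in 27 of 33 (81.8%), against 10508 genes (38.9%). The core of the gamma-activated site, TTCNNNGAA, was present in 8 of 33 (24.2%), against 2582 genes (9.55%). A match describes these letters in this window and no binding was measured. The following stretches are upstream of the start site and are shown because their genes recur in the results; they are written 5′ to 3′ along the gene's own strand, and the capitals mark the bases of the matched cores (a core on the opposite strand reads TTTC at both ends).
Isg15: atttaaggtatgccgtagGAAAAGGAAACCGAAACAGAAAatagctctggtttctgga
Bst2: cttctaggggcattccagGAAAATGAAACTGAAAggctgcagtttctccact
Irgm1: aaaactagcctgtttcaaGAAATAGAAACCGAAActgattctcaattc
Ifit1: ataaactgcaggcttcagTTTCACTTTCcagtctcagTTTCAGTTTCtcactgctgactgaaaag
Gbp2: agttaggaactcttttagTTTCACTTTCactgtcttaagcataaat
Igtp: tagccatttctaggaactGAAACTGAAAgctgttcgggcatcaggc
Stat2: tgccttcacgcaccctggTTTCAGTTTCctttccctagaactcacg
Trim30a: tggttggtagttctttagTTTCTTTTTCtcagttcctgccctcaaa
Rsad2: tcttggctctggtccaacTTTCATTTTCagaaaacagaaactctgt

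These stretches lie at chr4:156200857-156200914 (Isg15, minus strand), chr8:71537569-71537620 (Bst2, minus), chr11:48871421-48871468 (Irgm1, minus), chr19:34640767-34640831 (Ifit1, plus), chr3:142620586-142620631 (Gbp2, plus), chr11:58199504-58199549 (Igtp, plus), chr10:128270258-128270303 (Stat2, plus), chr7:104465202-104465247 (Trim30a, minus) and chr12:26456545-26456590 (Rsad2, minus). Isg15 holds 3 overlapping copies of the core within 78 bases of its start site, and Bst2 and Irgm1 hold 2 overlapping copies each. Ifit1 holds 2 separate copies. The members are spread over the genome with several runs of neighbours, including Ifit1, Ifit2 and Ifit3 on chromosome 19, Cmpk2 and Rsad2 on chromosome 12, and Parp9, Dtx3l and Parp14 on chromosome 16.

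Facts of the libraries bear on what follows. Nr4a1 itself was listed at 126.43 and 125.58 FPKM in the unstimulated wild-type and Nr4a1-/- libraries, at 744 to 856 FPKM in the stimulated wild-type libraries and at 660 to 760 FPKM in the stimulated Nr4a1-/- libraries. It was lower in the latter, at 86.9% of the wild-type mean (log2 difference -0.20, SE 0.0531, limma adjusted p = 0.0432), but present in every library and with overlapping ranges. Whether the deposited value covers the deleted part of the gene is not given in the sources used here, and genotype is therefore the label's throughout, with "knockout" short for "labelled Nr4a1-/-". The 6 B cell markers summed to 4090 and 3870 FPKM in the unstimulated libraries and to 1670 to 1790 FPKM in the stimulated ones. Of 7 T cell markers found, Cd3d, Cd3e, Cd3g, Cd4 and Cd8a stayed at or below 0.53 FPKM, while Lck was at 17.48 to 66.85 FPKM and Cd2 at 38.59 to 138.95 FPKM. FPKM values do not give the number of reads behind them, so no counting interval is given.

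Among the 39 tested members the mean over the 10 libraries ran from 1.05 FPKM to 122 FPKM, with a median of 8.04 FPKM, against 14 FPKM over all tested genes. The 3 highest were Sp100, a nuclear body protein, at 122 FPKM, Samhd1, which hydrolyses deoxynucleotides, at 68 FPKM, and Ifnar1 at 43 FPKM. The 3 lowest were Usp18, the protease that removes Isg15 from proteins and restrains the receptor, at 1.05 FPKM, Cmpk2, a mitochondrial nucleotide kinase, at 1.48 FPKM, and Oasl2, an oligoadenylate synthetase-like protein, at 1.55 FPKM. Most members were thus low to moderate: 15 were under 5 FPKM and 8 were at 20 FPKM or more. Sp100 was at 187.04 (wild type) and 178.55 FPKM (knockout) without stimulation, at 108.52, 107.44, 114.40 and 106.37 in the stimulated wild-type libraries and at 107.05, 110.48, 104.71 and 100.05 in the knockout ones. Usp18 was at 2.18 and 2.05 FPKM unstimulated, then at 1.32, 0.91, 0.67 and 1.05 in the wild-type and at 0.34, 0.77, 0.73 and 0.49 in the knockout libraries. Oasl2 was at 2.94 and 1.97 FPKM, then at 1.37, 1.46, 2.00 and 1.26 and at 1.07, 1.12, 1.62 and 0.67. In all 3 both unstimulated libraries were high or near the top, and the genotypes overlapped after stimulation; for Oasl2 the unstimulated knockout library lay just under wild-type library C.

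With anti-IgM most of the module fell. The labels do not say how long the unstimulated cells were in culture. The part of culture time in the changes with anti-IgM was not tested. The limma fit on log2(FPKM + 1) took in the 10 libraries and a genotype term, and a gene was called where its Benjamini-Hochberg adjusted p was under 0.05 and its log2 change was 1 or more in either direction. It called 19 of 39 members lower, against 12.4% of all tested genes, and 0 higher, against 7.94%. Without the size limit 34 members passed lower and 1 passed higher, Ifnar2, against 4881 lower and 3188 higher of all 10225 tested genes. The median log2 change was -0.94 for the members and -0.17 for all tested genes. Changes on this scale understate those of low genes.

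The receptor chains changed less than most members, and in opposite directions. Ifnar1 was at 46.96 FPKM (wild type) and 47.95 FPKM (knockout) without stimulation, at 41.31, 40.17, 41.06 and 44.04 in the stimulated wild-type libraries and at 42.13, 43.14, 40.97 and 42.11 in the stimulated knockout ones. Ifnar2 was at 22.43 and 25.10 FPKM unstimulated, at 32.88, 31.64, 31.35 and 33.65 in the wild-type libraries and at 32.54, 32.69, 34.47 and 28.93 in the knockout libraries. Every stimulated library was above both unstimulated ones for Ifnar2 and below both for Ifnar1. The log2 change was 0.43 (SE 0.0634, limma adjusted p = 7.92e-05) for Ifnar2 and -0.18 (SE 0.0415, adjusted p = 0.00217) for Ifnar1, the latter close to the median of all genes.

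The transcription factors behind the receptor fell further. Stat2, which carries the transactivating part of the complex, was at 17.79 and 21.34 FPKM in the unstimulated libraries, at 4.89, 4.21, 4.36 and 4.43 in the stimulated wild-type libraries and at 4.45, 4.16, 4.15 and 3.73 in the stimulated knockout libraries. All 8 stimulated libraries lay far below both unstimulated ones (log2 change -1.95, SE 0.0867, limma adjusted p = 3.51e-09). Irf9, the DNA-binding part of the complex, was at 45.97 and 44.65 FPKM unstimulated, at 22.38, 21.27, 21.15 and 22.63 in the wild-type libraries and at 17.65, 18.85, 19.64 and 15.49 in the knockout libraries. The stimulated wild-type libraries held 47.5% of the unstimulated Irf9 level and the knockout ones 40.1%. Irf7, the factor that amplifies interferon production, was at 16.39 and 16.85 FPKM unstimulated, at 12.46, 9.67, 14.76 and 10.62 in the wild-type libraries and at 7.52, 7.57, 11.55 and 7.88 in the knockout libraries. Its fall passed the test without the size limit (log2 change -0.68, SE 0.173, limma adjusted p = 0.00375).

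The 4 largest called falls over both genotypes were those of Trim25, Stat2, Gbp3 and Samhd1. In wild type alone the log2 change of Trim25 was -1.61, smaller than those of Gbp3 (-2.005), Samhd1 (-1.84) and Stat2 (-1.78). In the knockout that of Trim25 was -2.56. Trim25, a ubiquitin ligase that acts on the RNA sensor RIG-I, went from 83.79 and 106.76 FPKM to 26.92, 26.31, 25.54 and 28.21 in the wild-type libraries and 17.94, 18.05, 16.94 and 16.20 in the knockout libraries (log2 change -2.09, SE 0.153, limma adjusted p = 2.15e-07). Gbp3, a guanylate-binding GTPase, went from 25.85 and 22.11 FPKM to 5.19, 6.16, 5.53 and 5.91 in the wild-type libraries and 5.77, 6.05, 4.80 and 4.98 in the knockout libraries (log2 change -1.93, SE 0.0862, adjusted p = 3.64e-09). Samhd1 went from 161.35 and 166.63 FPKM to 46.17, 42.19, 45.37 and 43.50 in the wild-type libraries and 44.21, 46.60, 43.37 and 40.30 in the knockout libraries (log2 change -1.88, SE 0.0538, adjusted p = 1.65e-10). For Gbp3 and Samhd1 the genotypes overlapped after stimulation, and only Trim25 among these 3 had separate genotype ranges.

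By role, all 5 tested ubiquitin ligases and ADP-ribosylation genes were called lower: Trim25, Trim30a, Parp9, Dtx3l and Parp14. So were 4 of 5 tested GTPases (Gbp2, Gbp3, Igtp and Irgm1, which act against intracellular pathogens), with Mx1 at -0.59. Of 5 sensors 2 were called, Ddx58 (RIG-I) at -1.75 and Eif2ak2 (the kinase PKR) at -1.03, while Dhx58 at -0.91 and Zbp1 at -0.87 passed only without the size limit. Of 6 tested RNA-binding and oligoadenylate synthetase genes 1 was called, Ifit3 at -1.35. The remaining calls were Herc6, the ligase that attaches Isg15, Cmpk2, Xaf1 and Rtp4, with Irf9, Stat2 and Samhd1 above.

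For 4 members the change did not pass the test at any size. Rsad2 (viperin), an antiviral enzyme, was at 6.01 and 5.31 FPKM unstimulated, at 4.32, 6.26, 5.43 and 7.42 in the wild-type libraries and at 4.44, 3.60, 3.58 and 3.32 in the knockout libraries, and its change with stimulation did not pass (log2 change -0.24, limma adjusted p = 0.176). The other 3 that did not pass were Ifih1 (the sensor MDA5) at -0.26, Ifi35 at 0.02 and Lgals3bp, a secreted glycoprotein, at 0.07. Isg15, the ubiquitin-like modifier that Herc6 attaches, passed with a log2 change of -0.29, and Bst2 (tetherin), which holds budding virus at the membrane, with -0.31 (adjusted p = 0.0403). In the 19 alternatives the adjusted p stayed under 0.05 in 14 for Isg15 and in 6 for Bst2, whose value came as near 0 as -0.078 with an adjusted p of up to 0.6. Of the genes shown with overlapping copies of the core, Isg15 and Bst2 thus changed less than the module's median, while Irgm1 fell by 1.66. Gbp3, whose stretch is not shown, also holds 2 overlapping copies upstream of its start site, and its log2 change was -1.93. Over the members with an entry, 14 tested members with an exact core had a median log2 change of -1.3 and 16 without one had a median of -0.85, given as a description with no test.

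**Figure D1:**
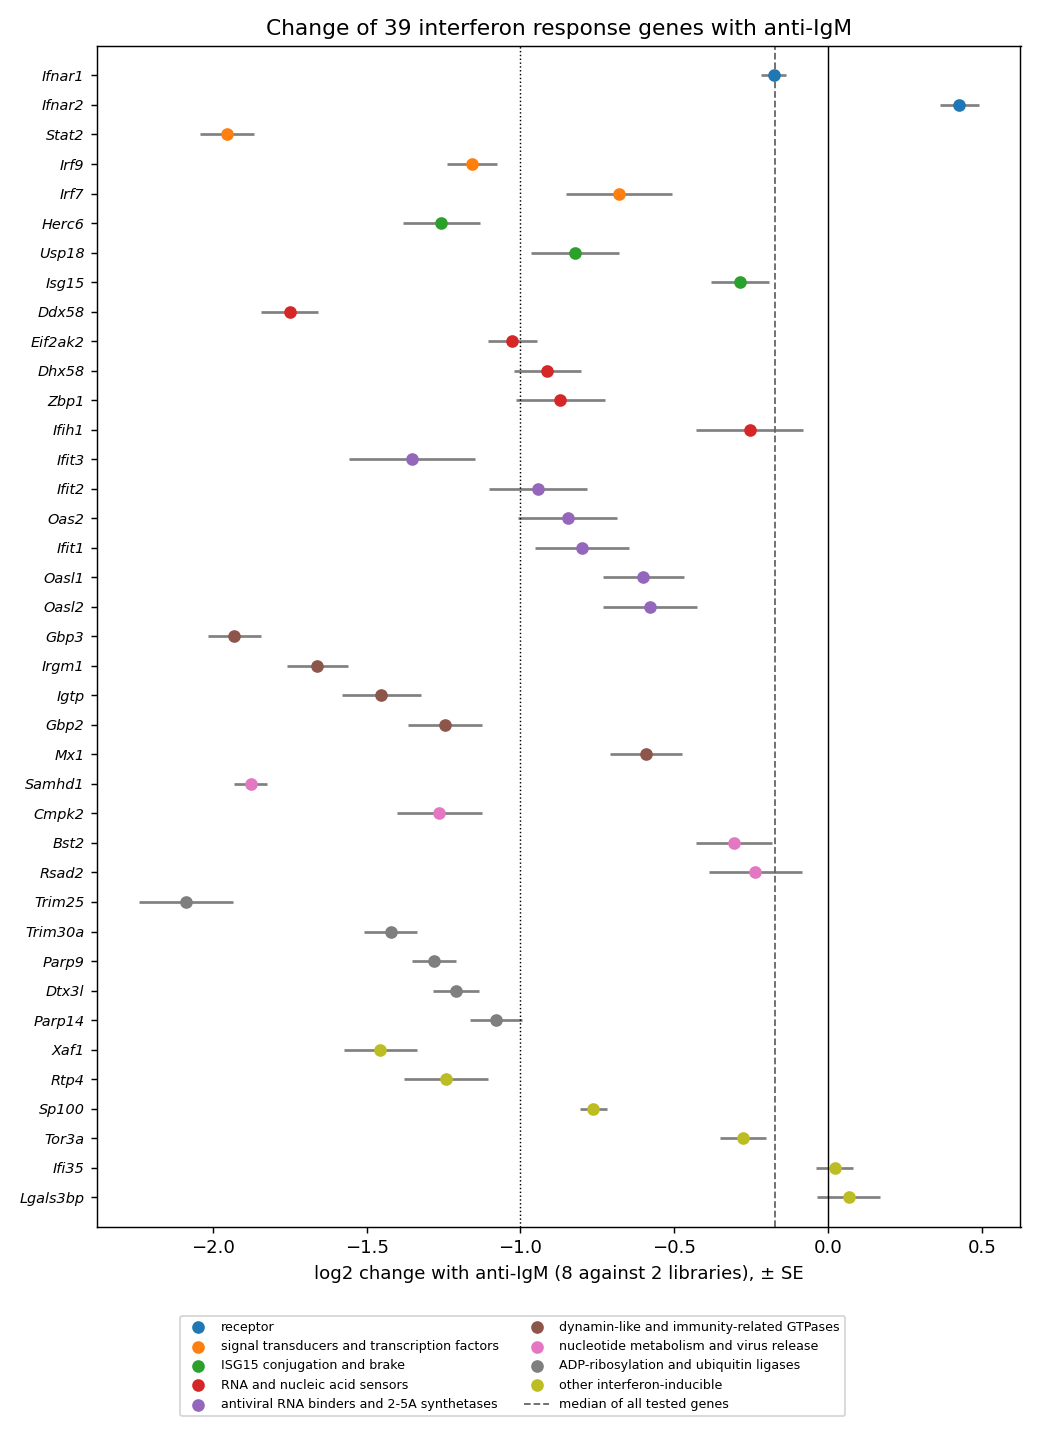
Log2 change of the 39 tested members with anti-IgM (horizontal axis, 8 stimulated against 2 unstimulated libraries, genotype as a term), coloured by role; points are limma estimates, bars are ± SE, the dotted line is the size limit of -1 and the dashed line the median of all tested genes. The 19 called members lie left of the dotted line. Ifnar2, at 0.43, lies furthest right, and Ifi35 at 0.02 and Lgals3bp at 0.07 are also above 0.

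The 2 unstimulated libraries are the only ones of their kind and had larger sums of FPKM (674961 and 595500) than the 8 stimulated ones (557214 to 571784); after rescaling to the median of ratios the median of all genes moved from -0.17 to 0.04 and that of the members to -0.76, and with a pseudocount of 5 only 8 members were called. B cell markers moved with the module: 5 of 6 were called lower with anti-IgM, with a list median of -1.18 against -0.94 for the members, and their part in the result was not tested. In bulk samples fewer cells of a type and less RNA per cell cannot be told apart; summed erythroid markers were 133 and 51.6 FPKM in the unstimulated libraries and 10.5 to 69.7 FPKM in the stimulated ones, and their part in the result was not tested.

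After 2 h of anti-IgM the module was lower in the knockout libraries. A limma fit of the 4 wild-type against the 4 knockout stimulated libraries, called at an adjusted p under 0.05, gave 8 of 39 members lower, against 5.81% of all tested genes, and 0 higher, against 3.91%. The 8 were Irf9, Ifit2, Rsad2, Cmpk2, Trim25, Trim30a, Xaf1 and Lgals3bp. The difference was negative for 37 of 39 members (94.9%), against 61.1% of all tested genes, with Gbp2 and Ifnar1 the exceptions. At an unadjusted p under 0.05 there were 18 members, all 18 of them lower, against 22.1% of all tested genes in either direction. The median difference was -0.23 for the members and -0.024 for all tested genes. For 7 members all 4 knockout libraries lay below all 4 wild-type ones, against 9.57% of tested genes, and for 0 members all lay above, against 5.96%.

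Trim25 had the largest difference relative to its spread: the wild-type mean was 26.7 ± 1.13 FPKM (SD, n = 4) and the knockout mean 17.3 ± 0.878 FPKM (SD, n = 4), with the library values given above. The difference was -0.60 (SE 0.0443, limma adjusted p = 4.16e-05). Trim30a, a restriction factor of the same protein family, was at 16.11, 14.10, 16.99 and 14.65 FPKM in the wild-type libraries and at 10.40, 10.53, 12.77 and 10.50 in the knockout libraries. The ranges did not overlap (difference -0.45, SE 0.0764, adjusted p = 0.00507). Trim30a has close copies in the genome, and how the counting divided reads between them is not given, so its level is uncertain.

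Among the effectors Ifit2, which binds viral RNA and limits translation, had the largest difference. It was at 2.23, 2.7, 3.5 and 4.08 FPKM in the wild-type libraries and at 1.86, 1.30, 1.76 and 1.49 in the knockout libraries, after 5.88 and 4.67 unstimulated, with no overlap (difference -0.65, SE 0.14, limma adjusted p = 0.0184). Its neighbour Ifit3 was at 4.65, 4.10, 5.82 and 7.31 against 3.10, 2.56, 4.40 and 2.85 FPKM; the ranges overlapped and the difference of -0.61 did not pass (adjusted p = 0.0545). Ifit3 also has a near-identical copy, so its value is uncertain. Ifit1 differed by -0.37 and did not pass.

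Cmpk2 and Rsad2 are neighbours on chromosome 12. Cmpk2 was at 1.14, 1.30, 1.09 and 1.33 FPKM in the wild-type libraries and at 0.62, 0.78, 0.91 and 0.39 in the knockout libraries, from 3.48 and 3.74 unstimulated, without overlap (difference -0.41, SE 0.105, limma adjusted p = 0.0394). Rsad2, whose library values are above, was the only one of the 8 called members whose ranges overlapped: wild-type library A, at 4.32 FPKM, lay below knockout library A, at 4.44 FPKM (difference -0.52, SE 0.133, adjusted p = 0.0396).

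Xaf1, a pro-apoptotic zinc-finger protein, was at 2.88, 2.42, 3.40 and 3.31 FPKM in the wild-type libraries and at 1.85, 1.49, 2.36 and 1.78 in the knockout libraries, from 9.59 and 7.08 unstimulated (difference -0.48, SE 0.11, limma adjusted p = 0.0247). The lowest wild-type library, 2.42 FPKM, was just above the highest knockout one, 2.36 FPKM. Lgals3bp was at 9.74, 7.84, 9.49 and 8.13 against 6.84, 6.34, 7.80 and 5.78 FPKM, from 7.86 and 6.69 unstimulated, with a gap as narrow (difference -0.35, SE 0.0925, adjusted p = 0.0443). Irf9, with the values given above, differed by -0.28 (SE 0.0653, adjusted p = 0.0273), its knockout mean standing at 81.9% of the wild-type mean. Stat2 differed by -0.10 (adjusted p = 0.424), Irf7 by -0.42 (adjusted p = 0.128), Ifnar1 by 0.02 and Ifnar2 by -0.01, and none of these passed.

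**Figure D2:**
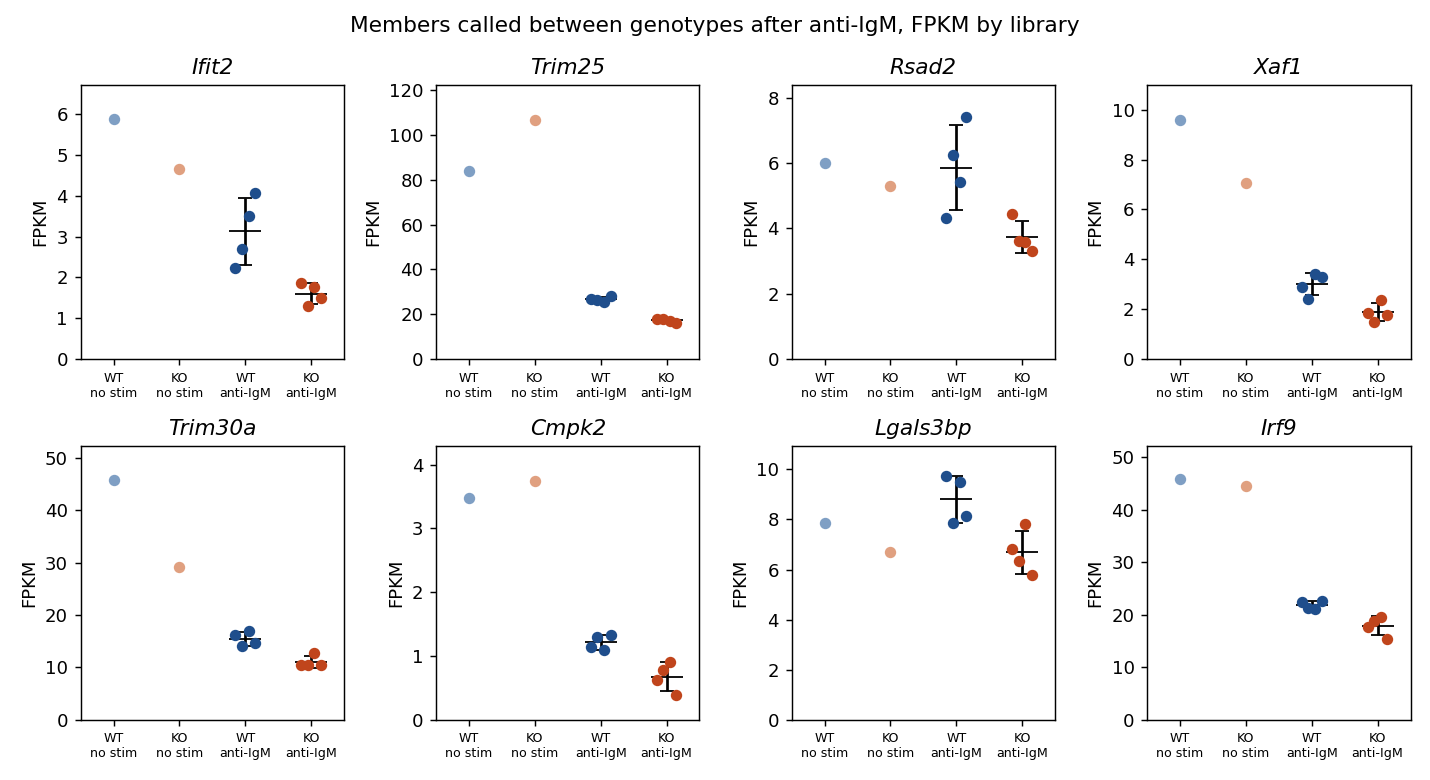
FPKM in every library for the 8 members called between genotypes after anti-IgM, on linear axes from 0; single points are the unstimulated libraries, and the horizontal mark and bar are the mean ± SD of 4 stimulated libraries. The stimulated knockout points lie below the wild-type ones in every panel but that of Rsad2, where 4.44 and 4.32 FPKM cross.

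How firm each of the 8 is differed. Trim25 and Trim30a were called in all 19 alternatives tried for them, Ifit2 in 14 of 18, Irf9 in 10 of 19, Xaf1 in 9 of 18, Lgals3bp in 7 of 19, and Rsad2 and Cmpk2 in 6 of 18 each. Leaving out wild-type library C, wild-type library D or knockout library D left 3 members called, leaving out knockout library A left 4 and leaving out knockout library B left 5, while leaving out knockout library C gave 11. Under median-of-ratios scaling and under quantile normalization 4 were called, and 37 negative differences became 34 and 36.

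The libraries were not alike within a genotype. Knockout library D was the lowest knockout library for 26 of 39 members and the highest for 0, and the mean log2 level of the members there was 2.68, against 2.82, 2.85 and 2.9 in knockout libraries A, B and C. The stimulated wild-type libraries A to D had means of 3.02, 3, 3.07 and 3.13, so by the mean all 4 lay above all 4 knockout libraries. By the median log2 level of the members the genotypes overlapped. That median was 2.63, 2.86, 2.79 and 3.05 in wild-type libraries A to D and 2.76, 2.82, 2.54 and 2.58 in the knockout ones. Wild-type library D was the highest wild-type library for 19 members and wild-type library B the lowest for 16. With libraries A to C of each genotype alone, a choice made after seeing the data, 2 members were called and the median difference was -0.13. The median SD of a member on the log2 scale was 0.107 in the wild-type and 0.142 in the knockout libraries, against 0.0663 and 0.0728 over all tested genes, whose median level was higher.

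**Figure D3:**
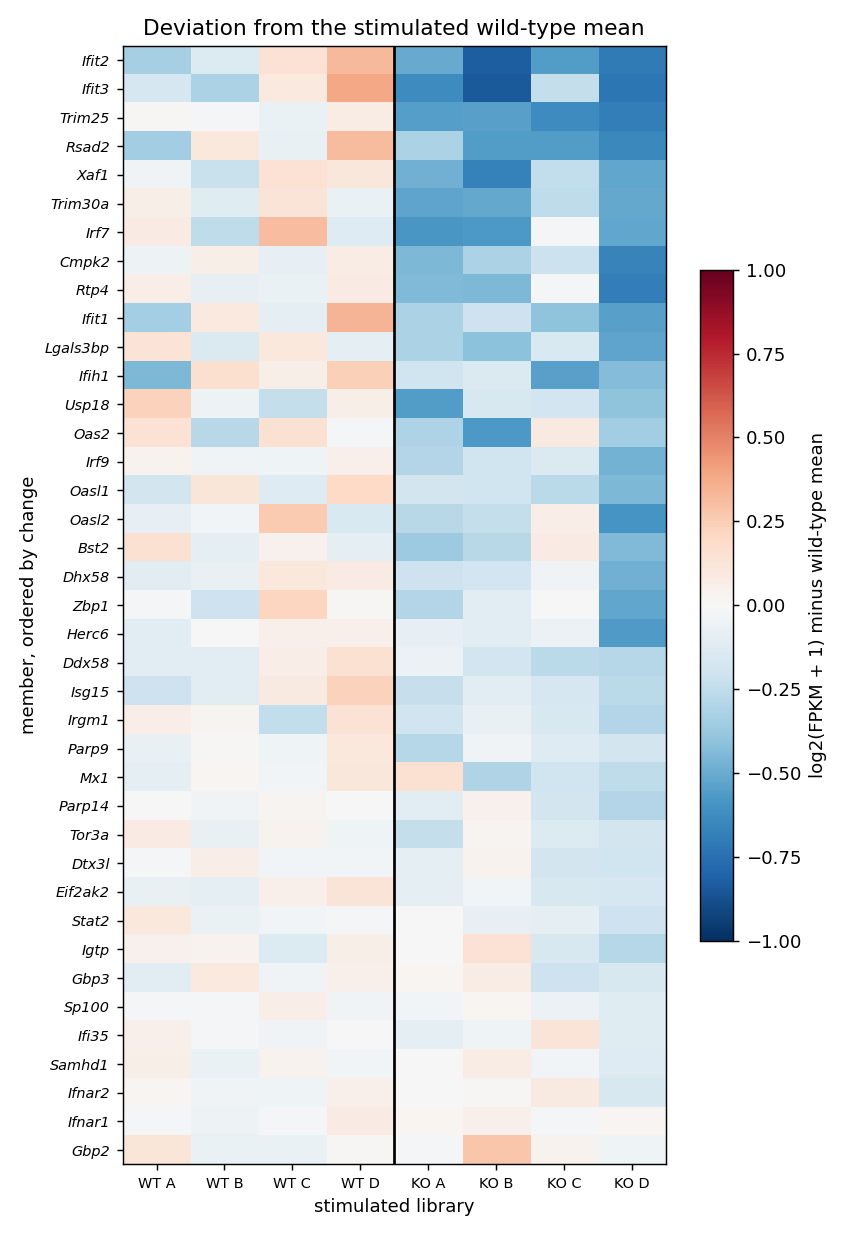
Level of each tested member in the 8 stimulated libraries as log2(FPKM + 1) minus the mean of the 4 wild-type libraries, members ordered from the most negative genotype difference at the top; blue is below and red above that mean. The knockout columns are mostly blue from Ifit2 down to Eif2ak2, and knockout library D is the bluest, being lowest in its group for 26 of 39 members.

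Markers of other cells were measured beside the genotype result. Summed over 10 genes, myeloid markers were at 52 to 155 FPKM in the stimulated wild-type libraries and 34 to 115 FPKM in the knockout ones; 8 of 9 tested were lower in the knockout libraries, 0 passed, and none of the 10 was at 0. Of 8 markers of plasmacytoid dendritic cells, the main interferon-producing cell type, 4 including Siglech stayed at or below 0.51 FPKM in every library, and the list's sum was 42 to 45.4 and 35.6 to 44 FPKM; that list shares Bst2 with the module. Lyz2, the lysozyme of myeloid cells, was at 31.91, 114.95, 27.09 and 26.59 FPKM in the wild-type libraries and at 52.96, 82.57, 15.81 and 17.36 in the knockout libraries. Library B was thus the highest for Lyz2 in each genotype, and was the wild-type library lowest for 16 members and the knockout library highest for 17. Single markers of other lists did pass between genotypes. Klrd1, 1 of 2 tested NK cell markers, was lower in the knockout libraries by a log2 difference of -0.59 (limma adjusted p = 0.0456), with Klrb1c, Nkg7, Gzma and Eomes at or below 0.28 FPKM. Cd79b, 1 of 6 B cell markers, was lower at -0.32 (adjusted p = 0.00054). Lck, 1 of 2 tested T cell markers, was higher at 0.48 (adjusted p = 3.15e-05), and Prdm1, 1 of 5 tested plasma cell markers, was higher at 0.44 (adjusted p = 0.0101). The part of any of these cells in the genotype result was not tested.

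The other genes of the pathway were taken from lists of ligands, receptors, kinases, inhibitors, inducers and further inducible genes, of which 96 of 106 were found and 81 tested. After stimulation 7 of the 81 (8.64%) were called lower in the knockout libraries and 5 (6.17%) higher, near the 5.81% and 3.91% of all tested genes. Among the lower were Ifnb1 at -0.67, Stat3 at -0.55, Oas1a at -0.41, and Slfn5 and Trim14 at -0.31 each. The 5 higher were Ifi203 at 0.27, Ticam1 at 0.23, Tlr9 at 0.18, Jak2 at 0.15 and Irf5 at 0.11. The difference was negative for 57 of the 81 (70.4%), against 61.1% of all tested genes. Among the 54 tested further inducible genes it was negative for 45 (83.3%), with a median of -0.13 against -0.024. Of these 54, 4 were called lower and 1 higher, against 5.81% and 3.91% of all tested genes. All 4 knockout libraries lay below all 4 wild-type ones for 11 of them, against 9.57% of all tested genes, and above for 1, against 5.96%. Ifnb1, the gene of interferon beta, was at 1.38 and 1.28 FPKM unstimulated, at 1.41, 1.21, 1.56 and 2.19 in the wild-type libraries and at 0.76, 0.45, 1.08 and 0.29 in the knockout libraries (limma adjusted p = 0.0334). Its stimulated knockout libraries all lay below every other library, at levels close to the limit of 1 FPKM. The other 6 type I interferon genes found stayed at or below 0.12 FPKM.

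With stimulation 30 of the 81 (37%) were called lower, against 12.4% of all tested genes, and 3 (3.7%) higher, against 7.94%. The largest falls were Tmem173 (the adaptor STING) at -3.23, Trim34a at -2.91, Ly6a at -2.36, Slfn8 at -2.24, Irf2 at -1.89 and Gbp5 at -1.80. The 3 that rose were Irf8 at 1.43, Tlr7 at 1.08 and Mb21d1 (the DNA sensor cGAS) at 1.06. Of 54 tested further inducible genes 25 (46.3%) were called lower and 0 higher. Without the size limit 44 of them passed lower and 6 higher, against 4881 and 3188 of all 10225 tested genes.

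Before stimulation the genotypes were compared in 1 library each, as a description without a test. The members' median difference was -0.07, against 0.07 for all tested genes, and 23 of 39 were negative (59%, against 40.4%). Lower in the knockout library by a log2 difference of at least 0.5 were 3 members, against 2.76% of all tested genes, and higher by as much were 0, against 4.31%. The 3 were Zbp1, a sensor of Z-form nucleic acids (17.43 against 10.73 FPKM, -0.65), Trim30a (45.79 against 29.27 FPKM, -0.63) and Bst2 (33.19 against 22.26 FPKM, -0.56). The largest positive differences were those of Igtp (9.69 against 13.23 FPKM, 0.41), Trim25 (83.79 against 106.76 FPKM, 0.35) and Oasl1 (11.26 against 13.81 FPKM, 0.27). After stimulation Zbp1 was at 7.58, 6.54, 9.12 and 7.76 FPKM in the wild-type and at 6.10, 7.10, 7.74 and 5.06 in the knockout libraries. Bst2 was at 26.61, 22.21, 24.66 and 22.27 against 18.36, 19.55, 25.32 and 17.36 FPKM, knockout library C alone reaching the wild-type range. Of the members higher in the unstimulated knockout library, Igtp was at 3.76, 3.75, 3.20 and 3.83 FPKM in the wild-type and at 3.61, 4.12, 3.15 and 2.79 in the knockout libraries after stimulation, and Oasl1 at 7.61, 9.63, 7.95 and 10.21 against 7.61, 7.52, 7.10 and 6.16. The genotypes overlapped or touched for these 4 members after stimulation, and none was called. Trim30a lay lower in the knockout libraries before and after stimulation, and Trim25 was higher before and lower after.

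**Figure D4:**
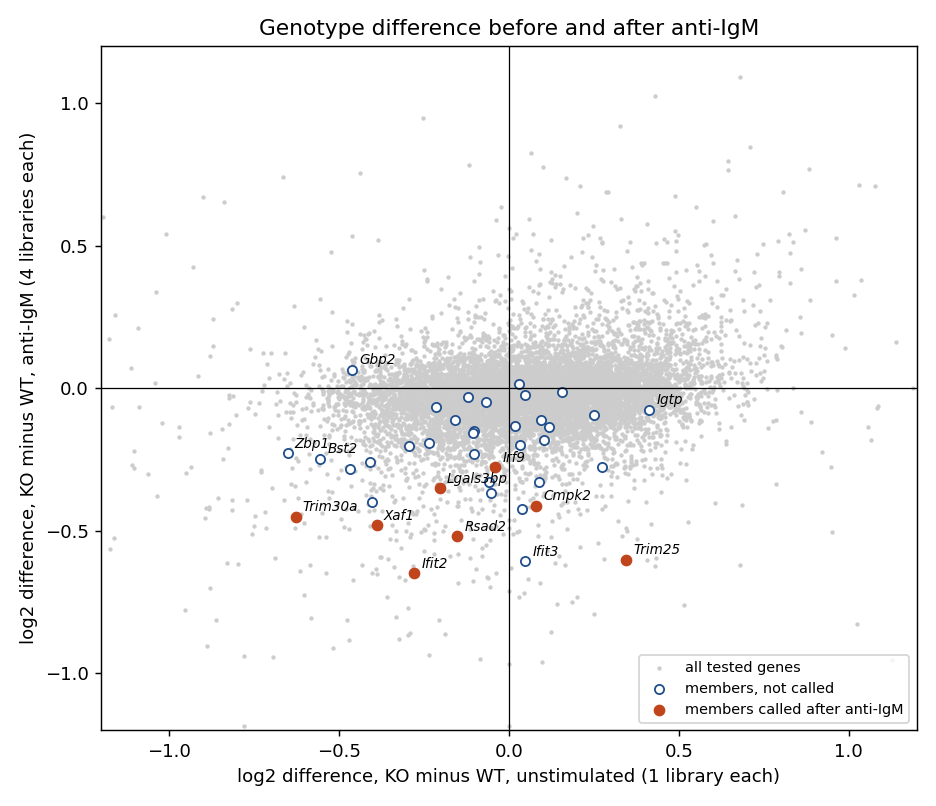
Log2 difference knockout minus wild type in the unstimulated pair (horizontal axis, 1 library each) against that after anti-IgM (vertical axis, 4 libraries each) for the tested genes (grey) and the 39 members (circles, filled where called after stimulation); axes end at ±1.2, which leaves 95 tested genes, none of them members, outside. Most members lie below 0 on the vertical axis and on both sides of 0 on the horizontal one, with Trim25 at 0.35 and -0.60.

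Whether the genotypes responded unequally was tested as the interaction term of a 4-group limma fit, in which each lone unstimulated library is assumed to vary like the stimulated ones. It called 1 of 39 members, Trim25, a share below the 18.9% of all tested genes called in either direction. The log2 change of Trim25 in the knockout libraries minus that in the wild-type ones was -0.95 (SE 0.0966, limma adjusted p = 0.00136): the wild-type libraries held 31.9% of the unstimulated level and the knockout libraries 16.2%. In 16 of 16 alternatives Trim25 was called, with values from -1.12 to -0.84. Another 4 members, Stat2, Oasl1, Gbp2 and Igtp, had an unadjusted p under 0.05 and did not pass after adjustment (lowest adjusted p = 0.0742, Gbp2). With Trim25 this made 5 of 39 members at an unadjusted p under 0.05, against 3390 of all 10225 tested genes. The median response of the members was -0.95 in the wild-type and -0.98 in the knockout libraries, and 26 of 39 members had a more negative change in the latter, against 63.8% of all tested genes.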

How the data were processed

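B cells of 4 groups were measured by stranded mRNA sequencing. The submitters' processing notes name STAR 2.4, RSEM 1.2.14 and mm10; the annotation, filters and use of strand in counting are not given in the sources used here. The authors deposited 1 table of FPKM per gene and library, in which every column was matched to a sample by its description. From it, log2(FPKM + 1) was computed, genes whose mean over the 10 libraries reached 1 FPKM were kept, and limma 3.58.1 (R 4.3.3; eBayes with trend) was fitted across all 10225 of them, two-sided, with Benjamini-Hochberg adjustment. Scripts were tested on simulated data. Over all tested genes same-letter libraries of the genotypes did not deviate together (correlations -0.12 to 0.045), so no letter block was used. Some members, such as Irf7 and Trim30a, were highest in library C of each genotype, while others, such as Trim25, were highest under different letters. No 2 libraries held identical values (pairwise correlations 0.985 to 0.993).

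Promoters were searched with Python 3.11.15. Alternatives covered pseudocounts of 0.1 and 5, filters, 3 scalings, the variance model, the block and each library left out. Values per library are given for the receptor and signal transducer members, the members called between genotypes, the 4 most changed called members in each direction under anti-IgM and the 3 members furthest apart in each direction in the unstimulated pair, and the 3 highest and 3 lowest members by mean. Up to 6 pathway genes each way are named per comparison; 1 that this rule would name is not reported here. The members and lists were chosen with earlier results of these data known.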

Additional observations from a re-analysis of the deposited data

Results flagged for a closer look

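In 4 of the 86 groups of 4 stimulated libraries examined (each of the 43 members in each genotype), 1 library stood apart from the other 3; about 1 in 20 groups, or 4.3, would do so by chance. Igtp was at 3.2 FPKM in wild-type library C, against 3.75 to 3.83 FPKM in the others. Irf7 was at 11.55 FPKM in knockout library C, against 7.52 to 7.88 FPKM. Trim30a was at 12.77 FPKM in the same library, against 10.4 to 10.53 FPKM. Herc6 was at 0.86 FPKM in knockout library D, against 1.54 to 1.64 FPKM. The response of Trim25 to anti-IgM differed between the genotypes by -0.948 on the log2 scale (limma interaction term), a value that rests on 1 unstimulated library per genotype.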

How the results depend on the processing

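The count of 8 members called lower between genotypes became 2 without a filter and 5 with a mean of at least 5 FPKM. That limit left 15 of the 39 members untested, among them Ifit2, Rsad2, Cmpk2 and Xaf1 of the 8. The count became 4 under median-of-ratios scaling, 4 under quantile normalization and 2 with libraries A to C only (added after seeing the data). Leaving out 1 library gave 3 to 11. Under median-of-ratios scaling 378 of all genes were lower (594 as reported), and with libraries A to C only 284 were lower and 258 higher (400 as reported); 59.6% and 52.1% of called genes were higher under median-of-ratios and quantile scaling, against 40.2%. The 19 members called lower with stimulation became 8 with a pseudocount of 5, where 598 of all genes were lower and 534 higher (1266 and 812 as reported). A mean of at least 5 FPKM left 13 members and 824 genes, with Herc6, Eif2ak2, Gbp2, Cmpk2, Rtp4 and Xaf1 of the 19 untested. Median-of-ratios scaling left 801 genes. The members' median change of -0.94 became -1.21 with a pseudocount of 0.1, -0.56 with 5, -0.76 under median-of-ratios and -0.66 under quantile scaling. Called genes that were higher made up 52.3%, 59.1% and 51.8% under TPM, median-of-ratios and quantile scaling, against 39.1%. For the difference in response, 2 members were called lower and 1 higher with a pseudocount of 5, 4 lower under TPM, and 1 higher under quantile scaling; over all genes the 1504 lower and 427 higher became 3461 and 177 under TPM, 851 lower under median-of-ratios and 873 higher under quantile scaling, and 834 higher without a filter, with 4.87%, 34.4%, 41.9% and 34.6% higher against 22.1%. With the letter as a replicate block 7 members were called between genotypes and 20 with stimulation. The labels do not say whether the letters mark a pairing. Causes were not tested.

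Members near 0 changed sign. Between genotypes, Ifnar2 (-0.01) became 0.03 under median-of-ratios, 0.006 under quantile scaling and 0.055 with libraries A to C, and ranged from -0.045 to 0.037 with 1 library left out; Samhd1 (-0.02) became 0.019 and 0.005 under median-of-ratios and A to C, Ifi35 (-0.03) 0.012 and 0.001, and Igtp (-0.08) 0.015 under A to C. With 1 library left out, Ifnar1 ranged from -0.001 to 0.042, Gbp2 from -0.006 to 0.106 and Samhd1 from -0.055 to 0.014. With stimulation, Ifnar1 became 0.054 under median-of-ratios scaling, and Ifih1 0.155, Rsad2 0.163 and Ifi35 -0.037 under quantile scaling; with 1 library left out, Ifi35 ranged from -0.023 to 0.067 and Lgals3bp from -0.007 to 0.14. With FPKM alone the reads behind low members are unknown.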
